A study of Mus musculus with 6 samples.

Results

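The PD-1 and B7 family checkpoint genes described here are 10 genes, chosen by symbol, of the 18630 gene symbols that an array row names alone. They are the receptor gene PDCD1, its ligand genes CD274 and PDCD1LG2, the stabilising factor gene CMTM6, the receptor gene CTLA4 with its ligand genes CD80 and CD86, and the ligand genes CD276, VTCN1 and ICOSLG. All 10 were found. Each was represented by the row of highest mean signal for its symbol, and ICOSLG was the 1 member with a second row. Signals are gene-level log2 values from single-channel arrays.

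The study compared 3 arrays labelled control with 3 labelled anti-PD-1. The labels and their protocols describe each as total RNA from a subcutaneous tumour of the Lewis lung carcinoma (LLC) line, a transplantable mouse lung tumour. In both groups 1000000 LLC cells were injected in Matrigel into the flank. The labels' protocols then give 250 µg of an anti-PD-1 antibody or of an IgG2a isotype antibody into the peritoneum every 3 days, and the sample labels describe control tumours only as not treated with anti-PD-1. The design text speaks instead of LLC cells that survived 7 days after the antibody, in other words of cells tolerant of it. Strain, sex and age of the mice, and whether each array came from its own animal, are not given in the sources used here, and a p-value here may reflect only technical spread between arrays.

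Conflicts in the deposited table limit what each value means. First, all 10 members carry human symbols: 0 of their 22 RefSeq transcript accessions occur in the mouse gene table (GRCm38.p6), although the deposited header lines give mm10 and an array for mouse. Over all rows, human Ensembl transcripts are named in 19850 and mouse ones in 0. The positions below are therefore read as human positions, not mouse ones. They are given as deposited, and the build was not settled. Second, in the authors' deposited table the averages named C and P match the signals of the opposite letter for all 10 members. These averages do so in 21363 of all rows with values (99.6%). Of 5057 rows whose averages lie over 0.5 apart, 0 match the letters as named. Each difference below subtracts the mean of arrays labelled control from that of arrays labelled anti-PD-1, and if the letters of those averages are right, every sign turns. None of the 10 is among the 111 rows (0.517%) whose deposited averages or SDs cannot be recomputed from their signals.

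The B7 family are cell surface proteins of the immunoglobulin superfamily that give T cells a second signal beside that of the antigen receptor. CD80 and CD86 activate T cells through CD28 and restrain them through CTLA-4, for which they have a higher affinity. PD-1, induced on activated T cells, is engaged by PD-L1 (CD274) and PD-L2 (PDCD1LG2) and recruits phosphatases that dampen antigen receptor and CD28 signalling. In tumours PD-L1 is made by tumour cells and myeloid cells, and interferon gamma is its best known inducer.

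Of the 10 genes, VTCN1 and PDCD1LG2 were higher and CD274 was lower in arrays labelled anti-PD-1. The other 7 did not pass an adjusted p of 0.05 in limma. The 3 of 10 that passed compare with 29.8% of all 21448 rows (14.7% higher, 15.1% lower), so the number of members that passed was close to that of rows at large. Groups did not overlap for 4 of the 10, against 43.5% of all rows. The median difference was 0.22 on the log2 scale over the 10 genes and 0.01 over all rows.

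**Figure D1:**
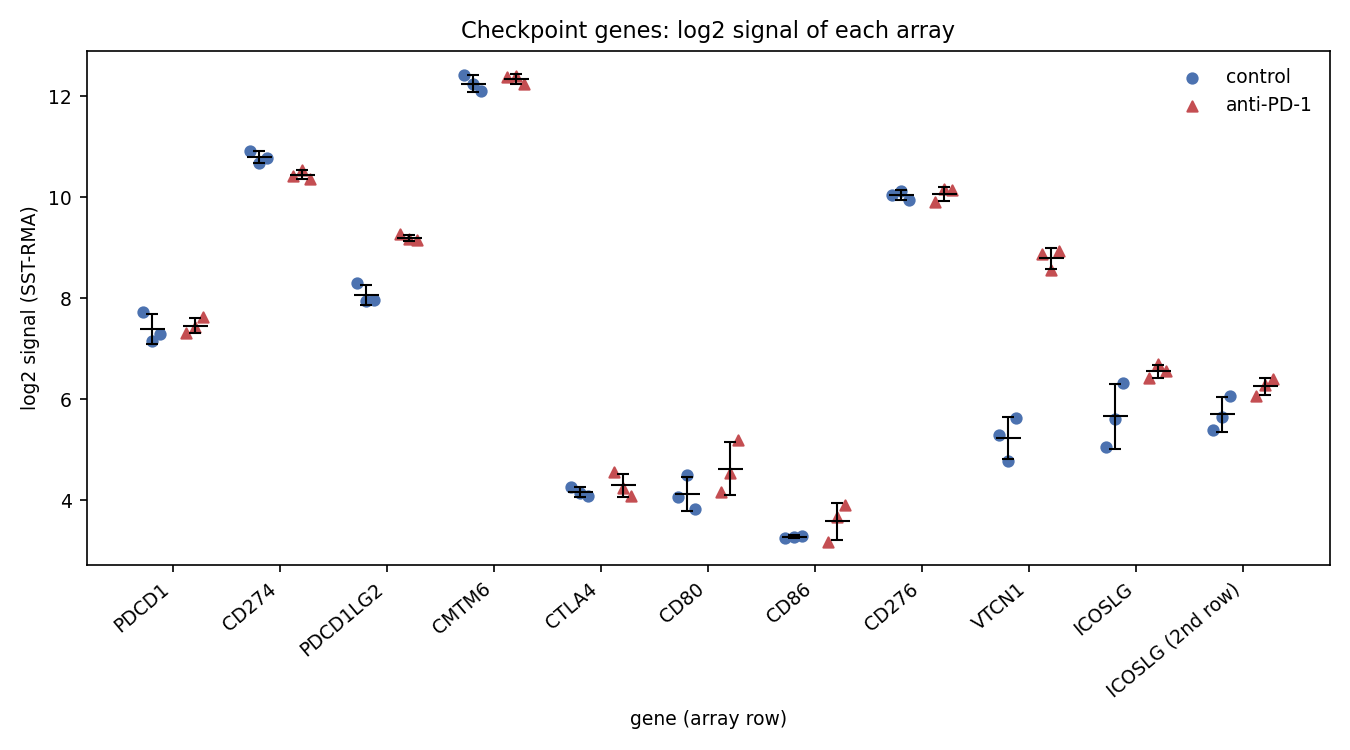
Log2 signal (vertical axis) of each array for the 10 genes and the second ICOSLG row (horizontal axis), with control arrays as circles, anti-PD-1 arrays as triangles, and bars for the mean and SD of 3 arrays. For VTCN1 control arrays lie between 4.78 and 5.62 and anti-PD-1 arrays between 8.56 and 8.93; heights of different genes are not comparable.

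PDCD1, the gene of the PD-1 receptor itself, lies on chromosome 2 from 241849881 to 241858908. Its log2 signals were 7.73, 7.15 and 7.29 in control arrays 1 to 3 and 7.32, 7.43 and 7.62 in anti-PD-1 arrays 1 to 3. All 3 anti-PD-1 arrays lay inside the control range. The difference was 0.07 ± 0.17 (SE, adjusted p = 0.814), with a 95% interval from -0.33 to 0.46, and its sign changed on leaving out control array 2 (-0.053) or anti-PD-1 array 3 (-0.015).

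CD274, which encodes PD-L1, lies on chromosome 9 from 5450503 to 5470567. Log2 signals were 10.92, 10.68 and 10.78 in control arrays and 10.43, 10.55 and 10.37 in anti-PD-1 arrays. Every anti-PD-1 array lay below every control array, by a narrow margin between control array 2 and anti-PD-1 array 2. CD274 was lower by 1.27-fold (log2 difference -0.34 ± 0.10, 95% interval -0.58 to -0.10, adjusted p = 0.0424 in limma). The call was lost on leaving out any 1 array other than control array 2 (adjusted p from 0.0452 to 0.126 over the 6 omissions).

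PDCD1LG2, which encodes PD-L2, the ligand more restricted to myeloid cells in normal tissue, is the next gene, on chromosome 9 from 5510545 to 5572835. Log2 signals were 8.30, 7.95 and 7.96 in control arrays and 9.27, 9.17 and 9.16 in anti-PD-1 arrays. The groups were well separated, and the anti-PD-1 arrays lay within a narrow band. The mean rose from 8.07 ± 0.20 to 9.20 ± 0.06 (SD, n = 3 each), a 2.19-fold difference (log2 1.13 ± 0.12 SE, 95% interval 0.85 to 1.41, adjusted p = 0.000541 in limma). A difference at least as large in the same direction was found in 689 rows (3.21%). It passed under each omission of 1 array (adjusted p from 0.000614 to 0.0037).

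Because both ligand genes were read on the same array, their log2 ratio does not depend on the scaling between arrays. PDCD1LG2 minus CD274 was -2.62, -2.73 and -2.82 in control arrays and -1.16, -1.38 and -1.21 in anti-PD-1 arrays. The ratio was higher in all 3 anti-PD-1 arrays than in any control array, with a shift of 1.47 on the log2 scale (2.78-fold). An exact two-sided permutation test over the 6 arrays gave p = 0.1, the smallest that 3 arrays against 3 allow, and 0.2 after adjustment over the 2 ligand pairs compared. With so few arrays this test could not pass the threshold, so it does not decide whether the ligand signals changed unequally. The values show only that the ratios of the groups did not overlap. The absolute value of the ratio carries no meaning, since probes differ in brightness.

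CMTM6, a membrane protein that binds PD-L1 and protects it from lysosomal breakdown, lies on chromosome 3 from 32481312 to 32503408. Its log2 signals were 12.42, 12.24 and 12.10 in control arrays and 12.39, 12.41 and 12.24 in anti-PD-1 arrays. The groups overlapped throughout. The difference was 0.09 ± 0.11 (SE, adjusted p = 0.599), with a 95% interval from -0.17 to 0.36.

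**Figure D2:**
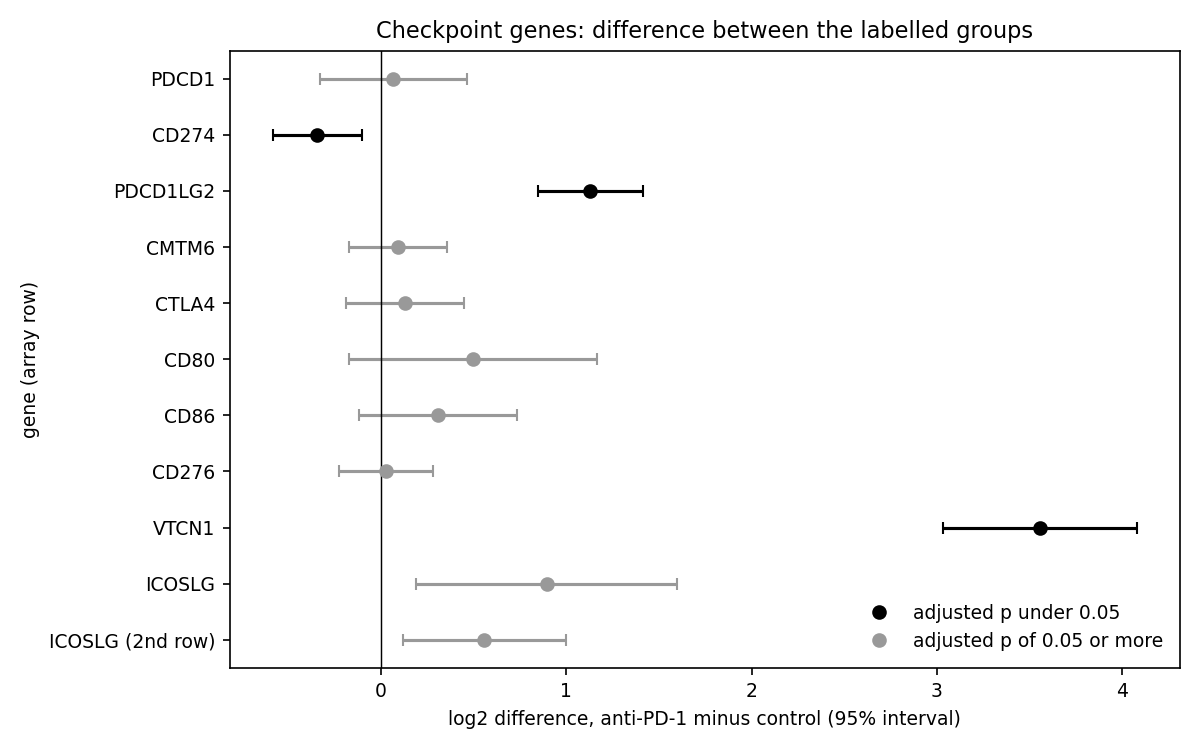
Log2 difference between arrays labelled anti-PD-1 and control (horizontal axis) with its 95% interval for each of the 10 genes and the second ICOSLG row (vertical axis); black points passed an adjusted p of 0.05. VTCN1 stands at 3.56, PDCD1LG2 at 1.13 and CD274 at -0.34, and the intervals of PDCD1, CMTM6, CTLA4, CD80, CD86 and CD276 include 0.

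CTLA4, the inhibitory receptor that shares its ligands with CD28, lies on chromosome 2 from 203867786 to 203873960. Log2 signals were 4.26, 4.15 and 4.08 in control arrays and 4.55, 4.24 and 4.09 in anti-PD-1 arrays. The groups overlapped, and only anti-PD-1 array 1 lay above the controls. The difference was 0.13 ± 0.13 (SE, adjusted p = 0.537). All 6 signals lay below 5.09, the lower quartile of row means, and the authors' deposited table flags the gene as not expressed in either group.

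CD80 lies on chromosome 3 from 119524293 to 119559634. Log2 signals were 4.07, 4.49 and 3.83 in control arrays and 4.16, 4.53 and 5.19 in anti-PD-1 arrays. The highest value was that of anti-PD-1 array 3, and the other anti-PD-1 arrays lay within or just above the control range. The difference was 0.50 ± 0.28 (SE, adjusted p = 0.251), with a 95% interval from -0.17 to 1.17. Leaving out single arrays moved it from 0.21 without anti-PD-1 array 3 to 0.73 without anti-PD-1 array 1, and it passed in none of the 6 omissions (adjusted p from 0.106 to 0.555).

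CD86, the other CD28 ligand and the one that antigen-presenting cells carry at rest, lies on chromosome 3 from 122055362 to 122121141. Log2 signals were 3.25, 3.28 and 3.30 in control arrays and 3.18, 3.67 and 3.90 in anti-PD-1 arrays. Anti-PD-1 array 1 lay below every control array and the others above them. The difference was 0.31 ± 0.18 (SE, adjusted p = 0.263). It depended on single arrays, at 0.51 (adjusted p = 0.0236) without anti-PD-1 array 1 and 0.15 (adjusted p = 0.574) without anti-PD-1 array 3. The row is flagged as not expressed in either group in the authors' deposited table. The ratio of CD80 to CD86 shifted by 0.19 on the log2 scale (exact permutation p = 0.4, adjusted over the 2 pairs p = 0.4). Both rows had a mean below 5.09, the lower quartile of row means, so this is a ratio of dim signals.

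PD-1, CTLA-4, CD80 and CD86 are proteins of lymphocytes and antigen-presenting cells, so marker genes of those cells are given beside them. In bulk RNA fewer cells of a type and less RNA per cell cannot be told apart. Of 8 measured T cell markers 7 had a row mean below 5.09. Among them CD8A stood at 3.75 and 3.73 in control and anti-PD-1 arrays and CD3D at 3.70 and 3.81. CD4, also below 5.09, fell by 0.46 (adjusted p = 0.0108), the 1 marker that passed, where 29.8% of all rows passed. The difference was 0.41 for CD8B (adjusted p = 0.099 in limma) and -0.58 for LCK (adjusted p = 0.0769). It was 0.22 for CD2, 0.13 for CD3E and 0.04 for CD3G, and the median of the 8 was 0.075. The summed T cell marker signal, on the log2 scale, ran from 7.27 to 7.68 in control and from 7.34 to 7.47 in anti-PD-1 arrays.

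Markers of antigen-presenting cells went in different directions, where 14.7% of all rows were higher and 15.1% lower. Of 10 macrophage and monocyte markers 4 lay below 5.09, among them ADGRE1 (3.62 and 3.79) and LYZ (4.48 and 4.51). PTPRC stood at 5.42 and 5.67 and ITGAM at 5.23 and 5.03 in control and anti-PD-1 arrays. The difference was -0.42 for CSF1R, -0.41 for CD163, 0.33 for MRC1 and 0.17 for FCGR1A, none of which passed. The median of the 10 was 0.10. CD14, the lipopolysaccharide co-receptor, rose by 1.19 (adjusted p = 0.0019), and CD68, a lysosomal protein, fell by 1.64 (adjusted p = 9.46e-05). Their summed signal was lower in anti-PD-1 arrays (12.87 to 13.14) than in control arrays (14.40 to 14.53), and CD68 contributed most to it in both groups. Of 8 dendritic cell markers 1 rose, LAMP3 (0.92, adjusted p = 0.00328), and the median of the 8 was -0.02. ITGAX stood at -0.17, ZBTB46 at -0.20, FLT3 at -0.12 and CLEC9A at -0.06. CCR7 stood at 0.33 (adjusted p = 0.0782 in limma), XCR1 at 0.16 and CD1C at 0.02. The summed signal of the 8 ran from 9.56 to 9.79 in control and from 9.92 to 10.02 in anti-PD-1 arrays, where LAMP3 contributed most to it. Of 6 B cell markers 1 fell, CD79A (-1.37, adjusted p = 0.00586), with sums from 10.40 to 10.94 in control and from 9.51 to 9.95 in anti-PD-1 arrays. Of 5 endothelial markers 0 passed and 3 lay below 5.09, among them PECAM1 (4.32 and 4.25). Of 5 measured fibroblast markers 0 passed and 2 lay below 5.09, while COL1A1 stood at 11.10 and 11.46. The part of all these cells in the ligand results was not tested. Whether the arrays hold tumour tissue or surviving LLC cells was not tested either.

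VTCN1 encodes B7-H4, a ligand that inhibits T cells through a receptor not yet established and that is known from carcinomas of breast, ovary and endometrium. It lies on chromosome 1 from 117143587 to 117210960. Log2 signals were 5.30, 4.78 and 5.62 in control arrays and 8.88, 8.56 and 8.93 in anti-PD-1 arrays. The groups were far apart, and no array of either lay near the other group. The mean rose from 5.23 ± 0.42 to 8.79 ± 0.20 (SD, n = 3 each), an 11.8-fold difference (log2 3.56 ± 0.22 SE, 95% interval 3.03 to 4.08, adjusted p = 5.5e-05 in limma). Only 37 rows (0.173%) had a difference as large in that direction, VTCN1 included. Leaving out any 1 array kept the difference between 3.33 and 3.75. The authors' deposited table gives a fold change of 12.52 for this gene, higher in the group it names C.

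Epithelial markers, given beside VTCN1 because carcinoma cells can express it, did not move as a group. EPCAM fell by 0.60 (adjusted p = 0.0019), KRT8 rose by 0.30 (adjusted p = 0.0269) and KRT18 stood at 0.18 (adjusted p = 0.158). CDH1 is among the 111 rows in conflict. Of 5 lung epithelial markers 2 rose, where 29.8% of all rows passed. NKX2-1, the lineage factor of lung and thyroid, rose by 0.83 (adjusted p = 0.00429). NAPSA rose by 0.75 (adjusted p = 0.0186), with a row mean below 5.09 (4.48 and 5.23 in control and anti-PD-1 arrays). SCGB1A1 stood at 0.70 with overlapping groups (adjusted p = 0.157). SFTPC (4.20 and 4.08) and SFTPB (4.53 and 4.57), surfactant genes of alveolar cells, lay below 5.09 in both groups. The part of epithelial content in the VTCN1 result was not tested.

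CD276, which encodes B7-H3, a ligand made by many solid tumours, lies on chromosome 15 from 73683966 to 73714518. Log2 signals were 10.05, 10.13 and 9.94 in control arrays and 9.90, 10.16 and 10.14 in anti-PD-1 arrays. The groups overlapped nearly completely. The difference was 0.03 ± 0.11 (SE, adjusted p = 0.888), with a 95% interval from -0.23 to 0.28 and a changed sign after median centring (-0.022).

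ICOSLG, the ligand of the costimulatory receptor ICOS, had a pair of rows. The brighter, on chromosome 21 from 44222991 to 44241004, had log2 signals of 5.05, 5.61 and 6.33 in control arrays and 6.43, 6.69 and 6.55 in anti-PD-1 arrays. All anti-PD-1 arrays lay above the controls, but control array 3 came close. The difference was 0.89 ± 0.30 (SE, 95% interval 0.19 to 1.60), which did not pass over all rows (adjusted p = 0.0637). It was 1.23 (adjusted p = 0.00671) without control array 3 and 0.59 (adjusted p = 0.119) without control array 1, with an adjusted p of up to 0.159 over the other omissions. It passed with rows below the lower quartile left out (adjusted p = 0.0464) and with a trended robust prior (adjusted p = 0.0116).

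The other ICOSLG row lies on chromosome 21 from 5022493 to 5040668 on the opposite strand. Its log2 signals were 5.39, 5.64 and 6.07 in control arrays and 6.07, 6.29 and 6.41 in anti-PD-1 arrays. Control array 3 was again the highest control and tied with the lowest anti-PD-1 array. The difference was 0.56 ± 0.19 (SE, adjusted p = 0.0638). The rows share a symbol, so signals of near-identical copies may not be separable.

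CD274 and PDCD1LG2 are adjacent, and 14 genes around them were set beside them. Of these 1 rose and 2 fell, where 29.8% of all rows passed. RIC1, a component of a Rab6 exchange factor that follows PDCD1LG2, rose by 0.74 (adjusted p = 0.00106). ERMP1, an endoplasmic reticulum peptidase, fell by 0.30 (adjusted p = 0.0382, lost without any of 5 of the 6 arrays taken singly), and UHRF2, a ubiquitin ligase that reads methylated DNA, fell by 0.50 (adjusted p = 0.00824). PLGRKT, the gene before CD274, stood at -0.49 with overlapping groups (adjusted p = 0.209), and JAK2, further upstream, at -0.14 (adjusted p = 0.64). The median difference of the 14 was -0.04, beside 0.01 for all rows.

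**Figure D3:**
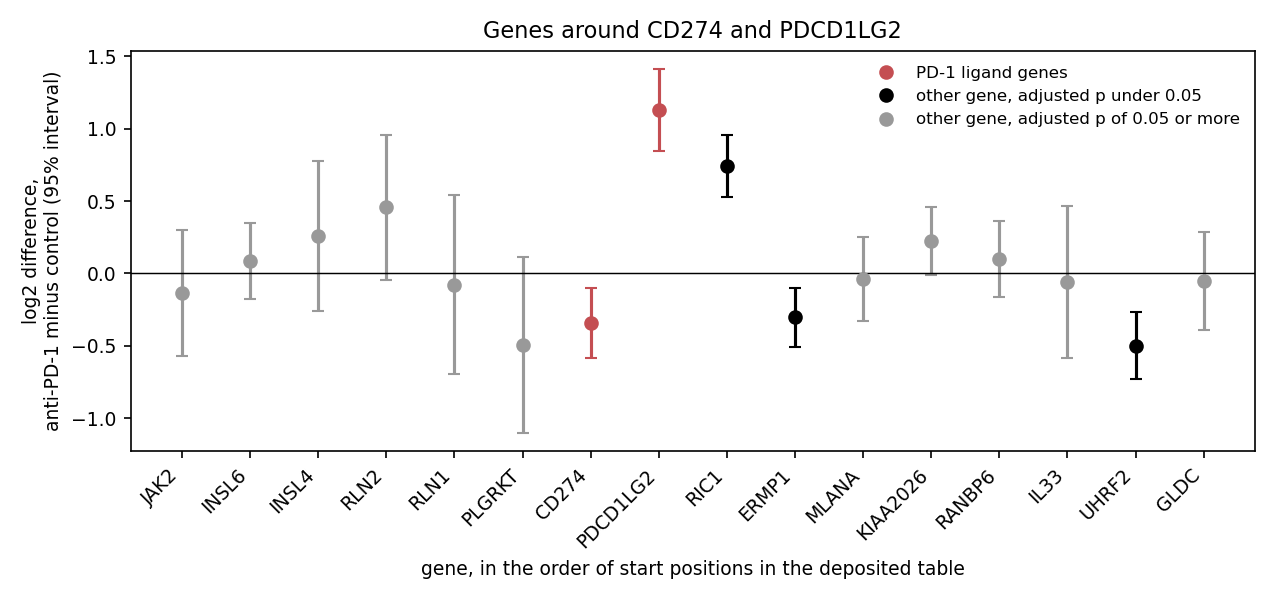
Log2 difference between arrays labelled anti-PD-1 and control (vertical axis) with its 95% interval for 14 genes and the PD-1 ligand genes, ordered by start position in the deposited table (horizontal axis). CD274 at -0.34 lies next to PDCD1LG2 at 1.13 and RIC1 at 0.74, and 11 of the other 14 genes did not pass.

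Signalling from interferon gamma to IRF1 is the route by which CD274 is best known to be induced. Of 15 genes of this axis 5 rose and 2 fell, with a median of 0.05, against 14.7% of all rows higher and 15.1% lower. IFNGR1, the ligand-binding receptor chain, rose by 1.54 (adjusted p = 0.000205), and the transcription factors STAT2 and STAT3 rose by 1.18 (adjusted p = 0.00208) and 0.87 (adjusted p = 0.00123). JAK1 (0.51, adjusted p = 0.0146) and IRF9 (0.64, adjusted p = 0.0084) complete the rises; these were named after their values were seen. IRF1, the factor that binds the CD274 promoter, fell.

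Log2 signals of IRF1 were 8.35, 8.47 and 8.48 in control arrays and 8.03, 7.84 and 7.95 in anti-PD-1 arrays. The groups did not overlap, and the difference was -0.49 (adjusted p = 0.00714). PTPN2, a phosphatase that acts on JAK kinases, fell by 0.59 (adjusted p = 0.00342). The gene of interferon gamma itself, IFNG, stood at 4.34 and 4.60, below 5.09 in both groups (adjusted p = 0.389).

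Of 9 other transcription regulators of CD274, WWTR1 and MEF2D passed, in opposite directions, where 29.8% of all rows passed. WWTR1, the YAP paralogue TAZ, fell by 1.36 (adjusted p = 0.000122) while YAP1 stood at 0.13 (adjusted p = 0.451). MEF2D rose by 0.37 (adjusted p = 0.0286), a call lost on leaving out any 1 array other than anti-PD-1 array 2. MYC (0.22, adjusted p = 0.0788) and HIF1A (0.04, adjusted p = 0.801) did not pass.

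Of 19 measured genes whose products process, stabilise or degrade PD-L1, 7 rose and 2 fell, with a median of 0.14, against 14.7% of all rows higher and 15.1% lower. After median centring of the arrays 5 were higher and 4 lower, so the balance of directions depended on the scaling. HIP1R, which sends PD-L1 to lysosomes, rose by 1.51 (adjusted p = 0.00074). ADAM17, a protease that sheds PD-L1 from the surface, rose by 0.69 (adjusted p = 0.00279), and ZDHHC9, a palmitoyltransferase, by 0.49 (adjusted p = 0.00374). B3GNT3, a glycosyltransferase of PD-L1, fell by 1.22 (adjusted p = 0.00109), and COPS5, a deubiquitinase that stabilises PD-L1, by 0.32 (adjusted p = 0.0264, lost without any of 5 of the 6 arrays taken singly). The count of 9 fell to 5 without anti-PD-1 array 2 or 3.

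Of 7 measured genes of the CMTM family besides CMTM6, 3 rose and 1 fell, against 14.7% of all rows higher and 15.1% lower. CMTM3 rose by 1.18 (adjusted p = 8e-05). CMTM4, which can stand in for CMTM6 at PD-L1, rose by 0.36 (adjusted p = 0.0171) and CMTM8 by 0.52 (adjusted p = 0.026). CMTM7, which adjoins CMTM6 on chromosome 3, fell by 0.31 (adjusted p = 0.0241), a call lost on leaving out any 1 array. Without single arrays the count of 4 ranged from 1 to 3, lowest without anti-PD-1 array 2 or control array 2, and those of CMTM4 and CMTM8 were among the calls lost.

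Of 8 genes for receptors and partners of the B7 family 2 rose and 0 fell, a number close to the 29.8% of all rows that passed. RGMB, a co-receptor for bone morphogenetic proteins that binds PD-L2, rose by 0.66 (adjusted p = 0.0179), a call lost without control array 2 or 3 or anti-PD-1 array 1 or 3 (adjusted p at most 0.0611). NEO1, which encodes neogenin, a receptor for RGM proteins, rose by 1.40. Its log2 signals were 10.09, 9.99 and 9.79 in control arrays and 11.48, 11.37 and 11.22 in anti-PD-1 arrays. The groups were well apart (adjusted p = 0.00019). CD28, the activating receptor for CD80 and CD86, stood at 3.33 and 3.26 (adjusted p = 0.828) and ICOS at 4.44 and 4.61 (adjusted p = 0.676).

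Among 14 other B7 and butyrophilin genes 6 rose and 0 fell, with a median of 0.29, against 14.7% of all rows higher and 15.1% lower. Without single arrays 5 or 6 of them rose. NCR3LG1, which encodes B7-H6, a ligand of the natural killer cell receptor NKp30, rose by 1.20. Its log2 signals were 9.13, 9.14 and 8.96 in control arrays and 10.09, 10.24 and 10.51 in anti-PD-1 arrays, with no overlap (adjusted p = 0.000577). The butyrophilins, relatives of B7 proteins, supplied 4 of the rises. BTN2A2 rose by 1.04 (adjusted p = 0.000999) and BTN3A1, which presents phosphoantigens to gamma delta T cells in humans, by 0.70 (adjusted p = 0.00103). BTN3A2, BTN3A3 and C10orf54, the gene of the checkpoint protein VISTA, make up the other rises, named after their values were seen, at 0.61, 0.71 and 0.80. NCR3LG1, BTN3A1, BTN3A2 and C10orf54 (an old symbol) had no symbol or synonym in the mouse gene table (GRCm38.p6). What those rows measured was not tested. HHLA2 (3.47 and 3.45) lay below 5.09 and did not pass (adjusted p = 0.937).

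**Figure D4:**
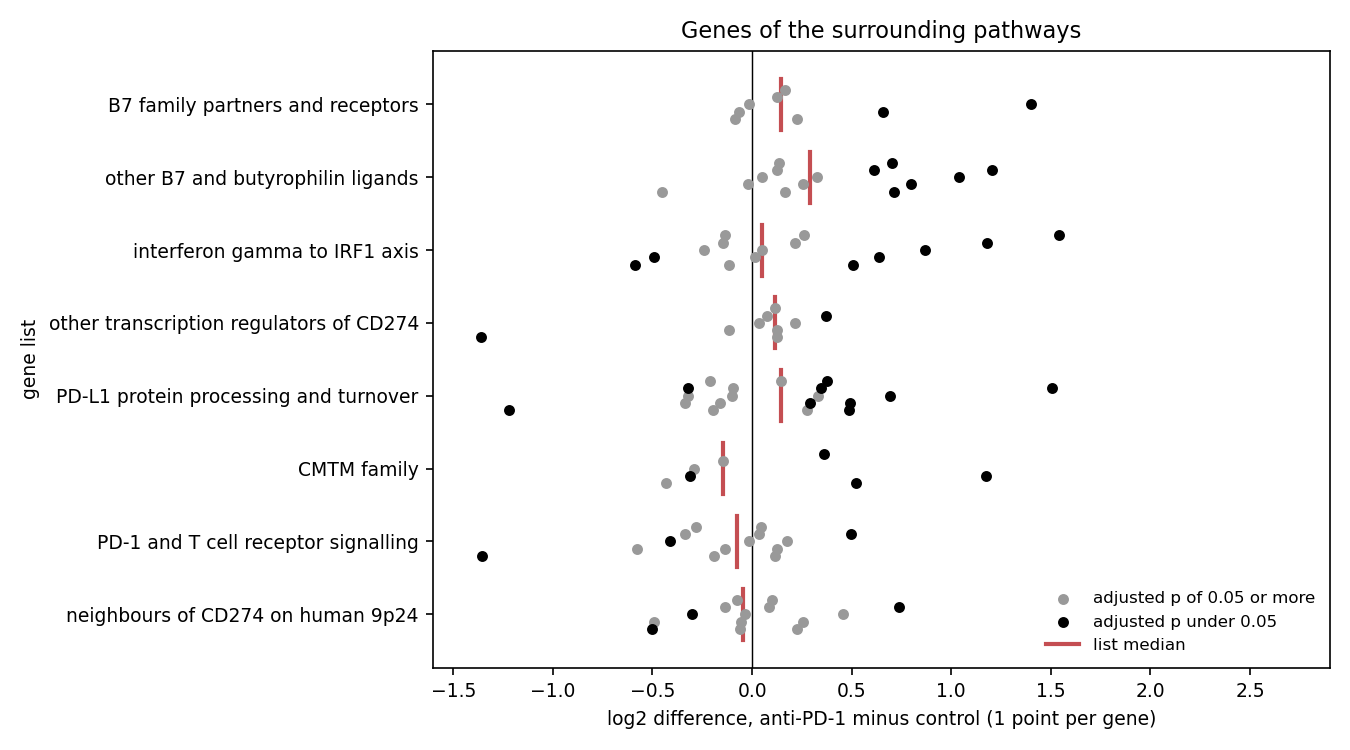
Log2 difference between arrays labelled anti-PD-1 and control (horizontal axis) for each gene of 8 lists around the checkpoint genes (vertical axis), 1 point per gene, black where the adjusted p was under 0.05, with the list median as a red bar. The 6 butyrophilin and B7 genes that passed all lie between 0.61 and 1.20, and the interferon gamma axis spreads from -0.59 to 1.54.

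Genes that carry the PD-1 and antigen receptor signal inside T cells were mostly dim. Of 14 genes 8 lay below 5.09, and 1 rose and 2 fell, where 29.8% of all rows passed. PTPN11, which encodes the phosphatase SHP2 recruited by PD-1 and is expressed in most cell types, stood at 13.63 and 13.68 (adjusted p = 0.784). NFATC2, a calcium-dependent transcription factor, fell by 1.36 (adjusted p = 0.000181) and the adaptor gene LAT rose by 0.50 (adjusted p = 0.0386). The LAT call was lost after median centring (adjusted p = 0.0545), after quantile normalization (adjusted p = 0.0542) and without any of 5 of the 6 arrays taken singly. ZAP70, the kinase of the antigen receptor, fell by 0.41 with both means below 5.09 (adjusted p = 0.0233), a call lost with a trended robust prior (adjusted p = 0.0793) and without control array 3 or anti-PD-1 array 1 or 3.

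The genes whose signals ran most like those of the PD-1 ligands over the 6 arrays were sought by the root mean square difference of mean-centred log2 signals among 17650 genes. For CD274 they were IAH1 (0.018), TMEM38B (0.021) and AP1S2 (0.033), lower by 0.34, 0.32 and 0.37. For PDCD1LG2 they were the kinase gene PLK2 (0.06), the RNA-binding protein gene RBMS2 (0.062) and the ephrin receptor gene EPHA4 (0.064), higher by 1.07, 1.19 and 1.07. With 6 arrays in 2 groups such likeness mainly reflects the size of the group difference.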

How the data were processed

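Per the file headers, the deposited log2 signals are gene-level SST-RMA values made by the authors from a Clariom S mouse array. Transcriptome Analysis Console is named, with no version, in the submitters' processing notes. Other columns of the authors' deposited table hold group averages and SDs, a signed fold change (treated as a score), a p-value and an expression flag of its own. Workbook and series value table held equal signals (largest difference 0). Of 22206 rows 21448 had values, 20406 of them with 1 symbol. Array medians lay between 7.71 and 7.77. No background intensity was used, so array number and rounding to 2 decimals limit precision.

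Groups followed the sample labels. The limma package, version 3.58.1 under R 4.3.3, was fitted to all 21448 rows (lmFit, then eBayes, two-sided, with group as the only term). Its p-values were adjusted over these rows by Benjamini-Hochberg, 0.05 was the threshold, and the fit was tested on simulated data. Averages were recomputed as Tukey biweights, and matched to the deposited ones within 0.05 (SDs within 0.02). Members and lists were chosen with earlier results of these data known. Named were all 10 members with their other rows, the up to 3 smallest adjusted p past the threshold per list and direction, 6 fixed genes (1 of them not reported here), and 3 most alike genes each for CD274 and PDCD1LG2, skipping uncharacterised, antisense and non-coding loci. Symbols CKLF, MARCHF8, TRAC and COL3A1 were not matched to a row with 1 symbol. Replicate numbers did not pair the arrays (correlations of deviations 0.013, -0.024 and 0.013). No sequences are shown, since the promoter sequences at hand are of mouse and the symbols human.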

Additional observations from a re-analysis of the deposited data

How the results depend on the processing

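The count of 6391 rows past the threshold became 3870 at an adjusted p of 0.01 and 3705 with a further limit of 1.5-fold, both fewer by construction. Without each array in turn it ranged from 4901 to 5452, and the count of changed members from 2 to 3. CD274 was lost in 5 of these 6 omissions, and CD86 (without anti-PD-1 array 1) and ICOSLG (without control array 3) were gained. The member count was 4 with rows below the lower quartile left out and with a trended robust prior, ICOSLG being gained. The PDCD1LG2 to CD274 shift ranged from 1.42 to 1.54 and the CD80 to CD86 shift from 0.03 to 0.37. Uncalled genes near 0 changed sign on leaving out single arrays: CD276 (-0.023 to 0.11), PDCD1 (-0.053 to 0.24), JAK2 (-0.28 to 0.0083) and CD28 (-0.22 to 0.11); CD276 also did so after median centring (-0.022). The cause was not tested. The replicate block gave 5363 rows and 2 members, without CD274 (adjusted p = 0.0948). Its exact p, from sign changes within replicate numbers, was 0.25 and 0.75 for the ligand pairs. As 0.25 is the smallest that this exact test allows, it could not pass the threshold. The 9 calls among PD-L1 processing genes became 14 with rows below the median left out and 16 with a trended robust prior. The 3 calls in PD-1 and T cell receptor signalling became 0 of 1 gene above the median, and 1 without anti-PD-1 array 3 or control array 3. The 2 calls among other regulators of CD274 and among B7 partners became 1 without 5 and 4 single arrays, and with the block the former became 1 and the 4 of the CMTM family 2. Of 128 list counts 106 stayed within 1.5 times their value, and of 582 differences of other named genes 508 kept direction and call. Leaving out the 111 rows in conflict, chosen after seeing the data, gave 6389 rows and 3 members; exchanging the groups, also chosen then, makes those 1 higher and 2 lower.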

Other observations

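Of 99 measured genes in the lists around the checkpoint genes, 13 had no symbol or synonym, in any letter case, in the mouse gene table (GRCm38.p6), while all 10 members had one. Some of the 13 were bright rows. BTN3A1 had mean log2 signals of 9.91 and 10.61 in control and anti-PD-1 arrays, BTN3A2 12.06 and 12.68, NCR3LG1 9.08 and 10.28, and CD58, a ligand of the T cell protein CD2, 10.34 and 10.01. Others were dim, such as HHLA2 (3.47 and 3.45) and INSL4 (3.70 and 3.96). C10orf54 is among them by an old symbol. Of 18737 rows with a numbered chromosome both in the identifier and in the chromosome column, the numbers were equal in 5670 (30.3%).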
